A study of Homo sapiens with 18 samples.

Results

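The comparison described here is TRMT61A knockdown against vector in input RNA, the small RNA that was sequenced without antibody enrichment. It takes 6 of the 18 libraries of a series on the human prostate stromal cell line WPMY-1: 3 labelled vector with the genotype TRMT61A wildtype, and 3 labelled sh61A with the genotype TRMT61A knockdown. The other 12 libraries hold RNA pulled down with an antibody against N1-methyladenosine (m1A), with or without the demethylase AlkB. RNA below 200 nucleotides was enriched from total RNA, and all adenosines in the deposited table of tRNA sites were taken. The table listed 725 sites in 180 tRNA genes, of which 6 lines repeated another and 719 sites were used. The labels give neither the shRNA sequence nor whether replicates were separate cultures; a p-value therefore covers no more than library-to-library spread, possibly of technical origin. TRMT61A mRNA is not analysed here, so the knockdown itself was not checked, and the table holds no marker of the cell type.

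TRMT61A is the catalytic subunit of the nuclear enzyme that, together with TRMT6, methylates the adenosine at position 58 in the T-loop of cytosolic tRNAs. The methyl group sits on the base-pairing edge of the adenosine, and reverse transcriptase tends to stop there or to misread the base. In yeast, loss of the corresponding enzyme lowers the initiator methionine tRNA. tRNAs are also cut in cells, and 5′ fragments of glycine and glutamate tRNAs are often abundant among small RNAs.

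Reads of the input libraries clustered at the ends of the tRNAs, and the tRNAs with most of the 3′ reads were largely others than those with most of the 5′ reads. The sequences of the tRNAs on which the 3′ results turn are given from the deposited table, 5′ to 3′ as DNA, with the T-loop (positions 54 to 60) in capitals; position 58 is the A that follows the first 4 capitals.
Val-AAC-1-1: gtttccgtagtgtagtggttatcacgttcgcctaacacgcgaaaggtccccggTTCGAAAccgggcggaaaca
Val-CAC-1-7: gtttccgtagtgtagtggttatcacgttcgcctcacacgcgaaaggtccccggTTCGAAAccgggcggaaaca
Val-TAC-1-1: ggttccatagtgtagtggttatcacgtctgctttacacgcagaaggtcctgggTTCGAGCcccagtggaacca
Tyr-GTA-2-1: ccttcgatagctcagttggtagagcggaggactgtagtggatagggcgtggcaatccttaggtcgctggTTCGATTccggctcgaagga
Gln-TTG-2-1: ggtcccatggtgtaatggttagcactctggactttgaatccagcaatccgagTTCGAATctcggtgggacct
iMet-CAT-1-1: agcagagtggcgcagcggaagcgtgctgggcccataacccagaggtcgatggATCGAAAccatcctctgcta

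On hg38 these genes lie at chr3:169772230-169772302 (plus strand), chr1:149712552-149712624 (minus), chr11:59550629-59550701 (minus), chr2:27050782-27050870 (plus), chr6:28589379-28589450 (plus) and chr1:153671250-153671321 (plus), in the order above. Val-AAC-1-1 and Val-CAC-1-7 shared their last 39 bases and differed at 1 base in all, so their 3′ reads cannot be told apart. The Tyr-GTA-2-1 gene includes its intron. In all genes position 58 was taken as the base 15 nucleotides before the 3′ end of the gene. Sites such as A60 are named by their base number in the gene, so position 58 is A58 in a gene of 73 bases and A57 in one of 72.

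The 5′ results turn on glycine and glutamate tRNAs, shown with the listed adenosines of their first 26 bases in capitals, since these are the places where reads were counted.
Gly-GCC-1-1: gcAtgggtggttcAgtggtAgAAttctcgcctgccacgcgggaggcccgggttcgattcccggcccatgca
Gly-GCC-2-1: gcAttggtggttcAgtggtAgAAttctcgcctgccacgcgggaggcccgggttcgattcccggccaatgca
Gly-CCC-1-1: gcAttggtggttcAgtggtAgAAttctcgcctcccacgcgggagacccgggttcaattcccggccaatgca
Glu-TTC-4-1: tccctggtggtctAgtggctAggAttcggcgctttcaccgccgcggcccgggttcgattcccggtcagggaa

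These genes lie at chr1:161443304-161443374 (plus strand), chr1:161523847-161523917 (minus), chr1:16545939-16546009 (minus) and chr1:16535279-16535350 (minus). Gly-GCC-2-1 and Gly-CCC-1-1 shared their first 32 bases, so a read of their 5′ part fits both. Gly-GCC-3-1 and Gly-GCC-5-1 shared the first 53 and 36 bases with Gly-GCC-2-1, whereas Gly-GCC-1-1 parted from it after 4 bases and differed at 2 bases in all. Values of single genes of such a family are therefore uncertain and not independent. A RefSeq tRNA gene stood at the same coordinates for 172 of the 180 listed genes.

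Reads summed over the 719 sites numbered 225291 to 307959 per library, and 454 to 487 sites had at least 20 reads. The highest site had 5023 reads. The chi-square per degree of freedom between replicates was 1.84 to 4.42, above counting noise for each pair. Library totals over the whole small RNA are not given, so each value is relative to the other listed sites, and the RNA is bulk RNA, in which fewer cells with a tRNA and less of it per cell cannot be told apart. The table also does not tell whether a read ends short because the RNA was cut or because the cDNA stopped, and these cannot be told apart here.

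Knockdown libraries held more reads from the 5′ part of tRNAs (bases 1 to 26) and fewer from the 3′ end (the last 9 bases). The 5′ part took 35.78%, 38.03% and 37.65% of site reads in the vector libraries and 56.5%, 57.2% and 54.4% in the knockdown libraries. The 3′ end took 45.3%, 43.3% and 43.8% in vector and 29.1%, 28.4% and 30.1% in knockdown. Neither region overlapped between groups, with means of 37.2% ± 1.21 and 56.0% ± 1.42 for the 5′ part and 44.2% ± 1.05 and 29.2% ± 0.848 for the 3′ end (SD, n = 3). The exact two-sided permutation p was 0.1 for each, the smallest that 3 against 3 libraries allow. Sites between these regions fell from 13.8% ± 0.327 to 9.72% ± 0.397, without overlap (exact p = 0.1). Position 58 itself took 1.86% ± 0.0298 and 2.11% ± 0.208, without overlap (exact p = 0.1). The anticodon arm (bases 27 to 43, or 27 to 37 with an intron) took 3.04% ± 0.201 and 2.93% ± 0.0112, where the libraries overlapped (exact p = 0.4).

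**Figure D1:**
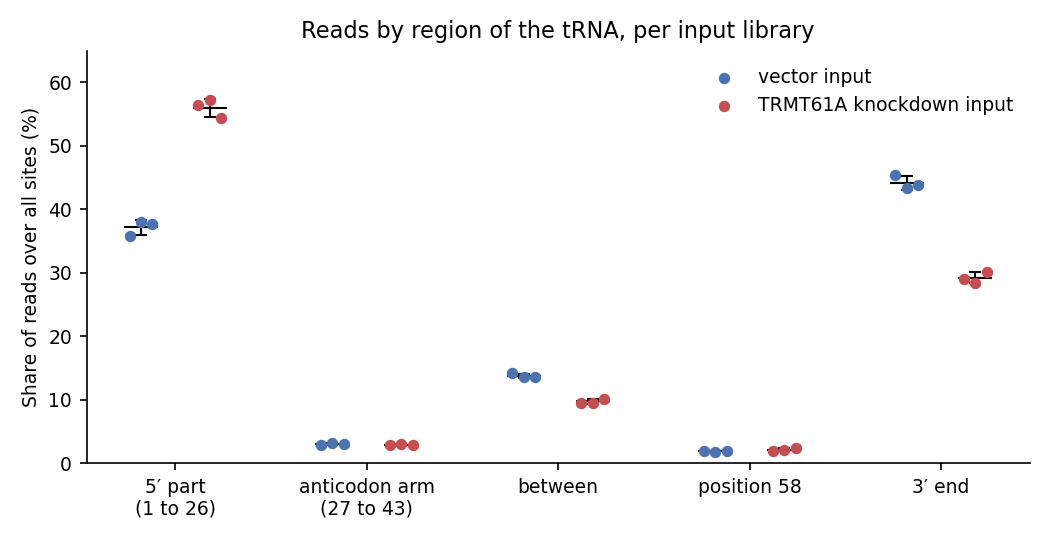
Share of all site reads (%) by region of the tRNA, with 1 point per input library, the mean as a bar and the SD as an error bar. The 3 knockdown libraries lie above the vector libraries in the 5′ part (54.4% to 57.2% against 35.78% to 38.03%) and below them at the 3′ end.

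Glycine tRNAs carried much of this shift, but it did not rest on them alone. The 34 listed glycine sites of the 5′ part took 19.4% ± 0.644 of site reads in vector and 35.3% ± 1.34 in knockdown (SD, n = 3). Leaving out all glycine tRNAs was a step added after seeing the data. In that case the 5′ part took 22.1% ± 0.930 and 32.3% ± 0.875, and the 3′ end 54.9% ± 0.899 and 45.2% ± 0.499. Both still did not overlap (exact p = 0.1). Without glycine, position 58 took 2.29% ± 0.0253 in vector and 3.24% ± 0.267 in knockdown, again without overlap, and the anticodon arm took 3.66% ± 0.267 and 4.31% ± 0.194 (exact p = 0.1 for both), where its sign with all tRNAs was the opposite.

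Site by site, edgeR's quasi-likelihood test with TMM normalisation called 216 of 519 tested sites at an adjusted p under 0.05, which is 41.6%. Of these, 96 were higher in knockdown (18.5%) and 120 lower (23.1%). The calls divided by region: 68 of 165 sites of the 5′ part rose and 8 fell, while 7 of 146 sites of the 3′ end rose and 67 fell. Of 128 sites between regions 7 rose and 38 fell, of 52 sites at position 58 there were 6 higher and 3 lower, and of 28 anticodon-arm sites 8 and 4. Sites of a tRNA share reads, so these counts are not counts of independent events.

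So that tRNAs with many sites did not count more, the median reads per gene and region were summed over genes of the same anticodon. This measure was added after seeing the data. Families of different anticodons can still share reads, as Val-AAC and Val-CAC at the 3′ end or Gly-GCC and Gly-CCC in the 5′ part. Counts of families are therefore not counts of independent events. edgeR called 33 of 88 family and region pairs (37.5%), 16 higher (18.2%) and 17 lower (19.3%). At the 3′ end 12 of 30 families fell and 2 rose, and in the 5′ part 5 of 19 rose and 2 fell. The median log2 change was -0.20 over the 30 families at the 3′ end, 0.09 over the 19 of the 5′ part and 0.01 over all 88 pairs. Without knockdown replicate 2 the number called was 20, and 16 of the 33 pairs were called without each library in turn.

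**Figure D2:**
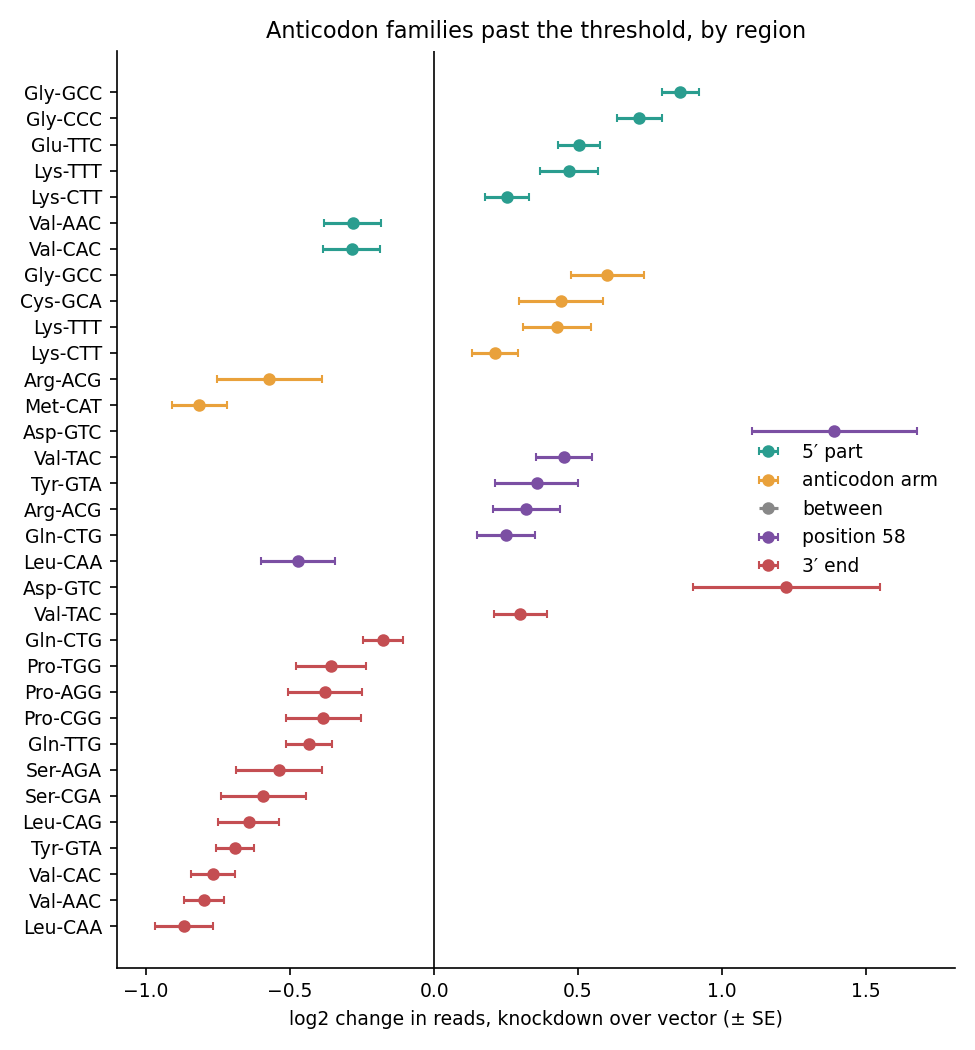
Log2 change in reads, knockdown over vector, with its standard error, for the 33 anticodon families and regions past the edgeR threshold, coloured by region. 12 of the 14 families at the 3′ end lie below 0, and 5 of the 7 of the 5′ part lie above it.

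Among the 3′ ends past the threshold, Leu-CAA, Val-AAC, Val-CAC, Tyr-GTA and Leu-CAG fell most. Val-AAC had 10028, 8675 and 9363 reads in vector and 5008, 5382 and 4141 in knockdown. Its log2 change was -0.80 ± 0.0700 (SE, edgeR adjusted p = 2.68e-24), and its libraries did not overlap. Tyr-GTA went from 14195, 9901 and 11770 reads to 6465, 6882 and 6407. All 19 tested Tyr-GTA sites of the 3′ end fell, and the family's log2 change was -0.69 ± 0.0666 (edgeR adjusted p = 8.47e-21). The vector libraries varied more here than the knockdown libraries, with replicate 1 the highest. Leu-CAA fell from 1911, 1090 and 1254 reads to 711, 692 and 656, a log2 change of -0.87 ± 0.101 (edgeR adjusted p = 4.53e-15). Val-CAC (-0.77), Leu-CAG (-0.64), Ser-CGA (-0.59), Ser-AGA (-0.54), Gln-TTG (-0.44), Pro-CGG (-0.39), Pro-AGG (-0.38) and Pro-TGG (-0.36) also fell on the log2 scale, and in each of them all knockdown shares were below all vector shares; over all 88 pairs the groups were apart in 39.8%. Gln-CTG also passed (-0.18, edgeR adjusted p = 0.0351), but its libraries overlapped. Its call and those of the 3 proline families and of Ser-AGA were lost without 1 or more libraries.

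Not every 3′ end moved this way. Leu-AAG had a log2 change of 0.36 ± 0.169, with all knockdown shares above all vector shares, but did not pass (edgeR adjusted p = 0.0844). Leu-TAG stood at 0.06 ± 0.209 with overlap and did not pass either (edgeR adjusted p = 0.858). Val-TAC, a valine tRNA with another T-loop than Val-AAC, had 1532, 1322 and 1466 reads in vector and 1625, 1644 and 1504 in knockdown, a log2 change of 0.30 ± 0.0924 (edgeR adjusted p = 0.00539), which was lost without knockdown replicate 1 or 2. The knockdown libraries lay above vector replicates 2 and 3 in reads and above all of them as shares. Val-TAC at position 58 rose by 0.45 ± 0.0973 (edgeR adjusted p = 3.18e-05). Asp-GTC rose at the 3′ end from 11 to 16 reads in vector to 22 to 35 in knockdown, a log2 change of 1.22 ± 0.324 on few reads (edgeR adjusted p = 0.00104). The initiator methionine tRNA, iMet-CAT, which starts translation, had 366, 258 and 331 reads at the 3′ end in vector and 255, 257 and 287 in knockdown. It did not pass the test (log2 -0.09 ± 0.129, edgeR adjusted p = 0.682), and its libraries overlapped.

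The families whose 5′ part rose were tRNAs for glycine, glutamate and lysine. Gly-GCC had 9502, 8025 and 9202 reads of the 5′ part in vector and 14700, 16644 and 12237 in knockdown. Its log2 change was 0.85 ± 0.0636 (edgeR adjusted p = 1.46e-31), and 20 of its 22 tested 5′ sites rose. Gly-CCC rose by 0.71 ± 0.0786 (edgeR adjusted p = 1.49e-16), in sites it shares in sequence with Gly-GCC. Glu-TTC went from 5219, 4354 and 4732 reads to 6213, 6647 and 5380, and all 15 of its tested 5′ sites rose (log2 0.50 ± 0.0728, edgeR adjusted p = 2.32e-10). In all 3 families no knockdown library had fewer reads than a vector library. Lys-TTT rose by 0.47 ± 0.1002 and Lys-CTT by 0.25 ± 0.0752 in the 5′ part, and both also rose in the anticodon arm, by 0.43 ± 0.118 and 0.21 ± 0.0789. These anticodon-arm calls were lost without vector replicate 1 or knockdown replicate 2, and that of Lys-CTT also without vector replicate 3 or knockdown replicate 1. Lys-CTT-2-1 had 1359, 1259 and 1273 reads at A26 and 1238, 1159 and 1153 at A31, on the 5′ side of its anticodon, in vector. Most reads of Gly-GCC-3-1 did not reach past the anticodon. It had 2841, 2399 and 2669 reads at A23 and 294, 272 and 311 at A36, just past the anticodon, in vector, and 4358, 4737 and 3707 against 358, 307 and 518 in knockdown. Valine moved the other way in the 5′ part, with Val-AAC at -0.28 ± 0.0996 and Val-CAC at -0.29 ± 0.0994 (edgeR adjusted p = 0.0149 and 0.0136). The 5′ calls of Val-AAC, Val-CAC and Lys-CTT were lost without 1 or more libraries. His-GTG, with 1 gene, had a log2 change of 0.04 ± 0.103 and did not pass.

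**Figure D3:**
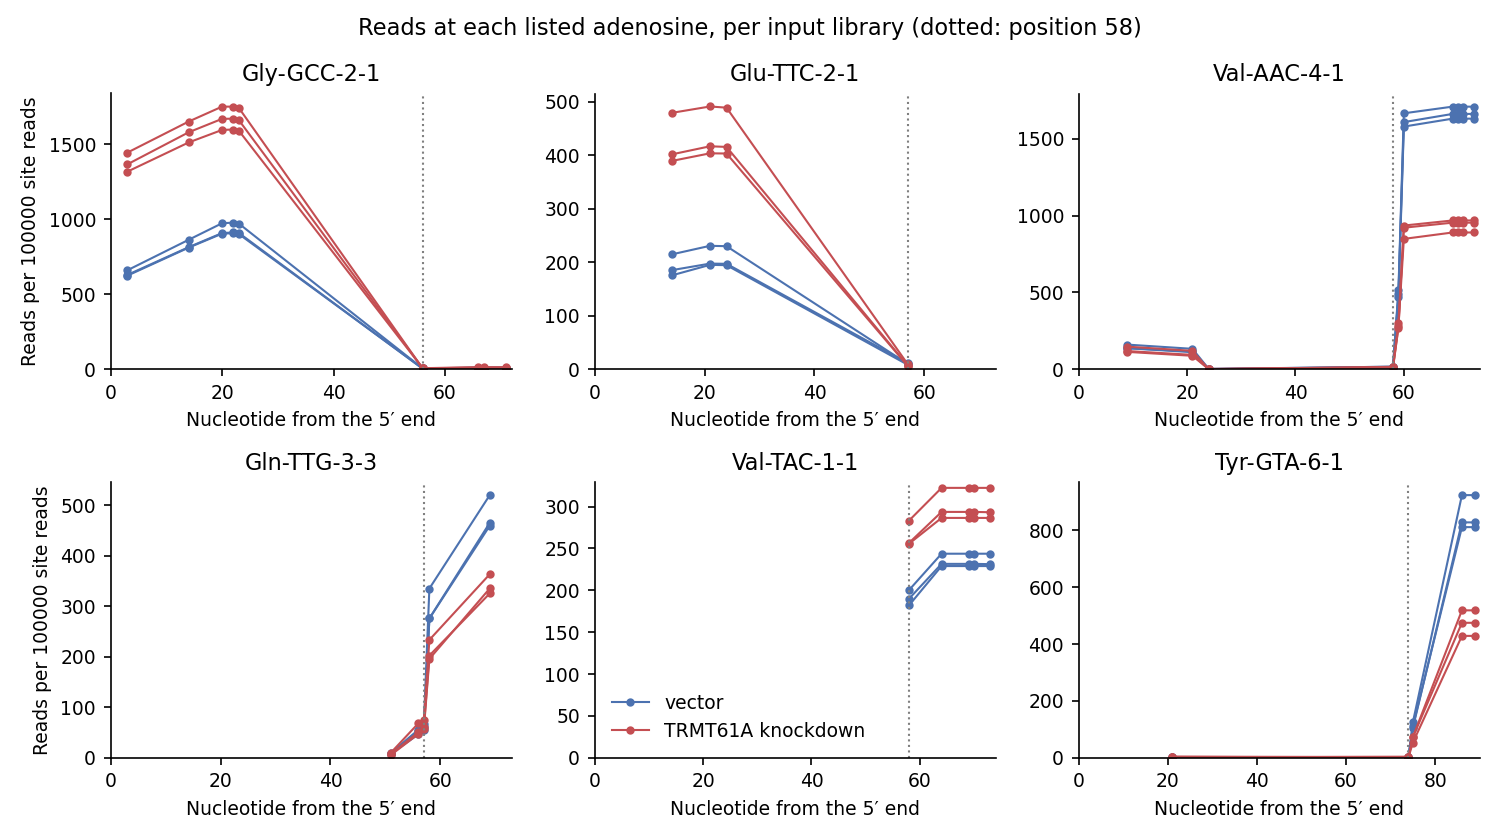
Reads at each listed adenosine per 100000 site reads, along 6 tRNAs from their 5′ end, with 1 line per input library (blue vector, red knockdown) and position 58 dotted; each panel has its own axis. Gly-GCC-2-1 and Glu-TTC-2-1 were read at the 5′ part, where knockdown lies higher. Val-AAC-4-1, Gln-TTG-3-3 and Tyr-GTA-6-1 were read mainly at the 3′ end, where knockdown lies lower, and Val-TAC-1-1 lies higher in knockdown.

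Single sites showed the same division. A3 of Gly-GCC-1-1 had 648, 514 and 597 reads in vector and 1490, 1772 and 1206 in knockdown, a log2 change of 1.51 ± 0.0893 (edgeR adjusted p = 1.60e-57). A14 of Glu-TTC-2-1 went from 540, 465 and 600 to 1031, 1087 and 1079 reads (log2 1.17 ± 0.0940, edgeR adjusted p = 1.16e-32). A74 of Leu-CAA-1-1 went from 188, 143 and 150 to 47, 55 and 51 reads, a log2 change of -1.47 ± 0.166 (edgeR adjusted p = 1.77e-17). None of these overlapped between groups. A60 of Val-AAC-4-1, 2 bases on the 3′ side of position 58, fell by 0.81 on the log2 scale, as did A60 of Val-CAC-1-7. A43 of Met-CAT-4-1, the elongator methionine tRNA and the only listed site of that gene, had 994, 882 and 967 reads in vector and 495, 532 and 429 in knockdown (log2 -0.80 ± 0.0989, edgeR adjusted p = 1.17e-14). Further rises by the naming rule were A9 of Lys-CTT-2-1 (0.90), A9 of Cys-GCA-4-1 (0.87), A23 of Lys-TTT-3-1 (0.52), A58 of Val-TAC-1-1 (0.51), A65 of Asp-GTC-3-1 (1.77, at 3 to 23 reads) and A3 of Gly-CCC-1-1 (1.04). Further falls were A86 of Tyr-GTA-6-1 (-0.82), A81 of Leu-CAG-1-1 (-0.59), A80 of Ser-CGA-4-1 (-0.57) and A69 of Gln-TTG-3-3 (-0.46), all log2 changes. All 16 named sites were called in every setting tried for reads per site.

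Because many families changed at 1 end, the reads of each tRNA were also set against each other. The ratio of 5′ part to 3′ end, over tRNAs whose 3′ end held 20 reads or more in all 6 libraries, rose past limma's threshold in 7 of 26 (26.9%) and fell in none. In 12 of 26 (46.2%) the groups did not overlap, all with knockdown higher. Gly-GCC-2-1 had 9253%, 8769% and 8758% in vector and 12544%, 14312% and 14925% in knockdown, at as few as 24 reads of the 3′ end. Its log2 change was 0.64 ± 0.135 (limma adjusted p = 0.0423). Pro-AGG-1-1, covered about equally at both ends, went from 94.3%, 94.2% and 95.7% to 143%, 160% and 129%. Val-CAC-1-7, read mostly at the 3′ end, went from 7.465%, 7.070% and 7.205% to 12.1%, 9.60% and 10.8%. In these 3 tRNAs the groups did not overlap. Pro-TGG-3-2 (123% and 195%), Pro-CGG-1-1 (107% and 162%), Glu-TTC-14-1 (3366% and 5192%) and Val-AAC-4-1 (7.22% and 10.7%), given as vector and knockdown means, also passed, each at the same limma adjusted p of 0.0423.

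By amino acid, the ratio was higher in knockdown in 6 of 6 proline, 4 of 4 tyrosine, 4 of 4 valine, 3 of 4 serine, 2 of 2 glutamate and 1 of 5 alanine tRNAs. The tyrosine ratios rested on 2 to 12 reads of the 5′ part per library, and none passed. Reads of the Tyr-GTA 5′ part did not pass either (log2 0.09 ± 0.312, edgeR adjusted p = 0.858). Ala-TGC-3-2 had 68.1% ± 14.3 and 65.7% ± 5.95 and Ser-TGA-4-1 15.05% ± 1.48 and 12.9% ± 2.93 (SD, n = 3), both with overlap and not past the threshold. Summed over 37 tRNAs the ratio was 74.0% ± 2.63 and 178% ± 5.98, and with each tRNA kept at its vector weight it was 35.0% ± 0.975 and 50.2% ± 1.48 over 26 tRNAs (exact p = 0.1 for both, SD, n = 3). The per-tRNA calls rested on all 6 libraries: without any of the 3 vector replicates or without knockdown replicate 3 none passed, without knockdown replicate 1 there were 3 and without knockdown replicate 2 there were 4.

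Read-through of position 58, the reads at that base over those at the 3′ end, was higher in knockdown in 49 of 52 tRNAs. Of these limma called 16 (30.8%), all higher, and in 27 (51.9%) the groups did not overlap. The ratio also rises where reads at the 3′ end fall. By family, reads at position 58 itself rose past edgeR's threshold in 5 of 28, fell in 1 and were not called in 22. Val-AAC had 96, 88 and 70 reads there in vector and 71, 87 and 68 in knockdown (log2 -0.01 ± 0.173, edgeR adjusted p = 0.943). Tyr-GTA rose there by 0.36 ± 0.145 (log2, edgeR adjusted p = 0.0379), with overlap, a call lost without some library. The levels of the ratio spanned a wide range among tRNAs. Tyr-GTA-6-1 had 0.176%, 0.196% and 0.130% in vector and 0.363%, 0.302% and 0.771% in knockdown. These values rested on only 3 to 9 reads at position 58 per library. Tyr-GTA-2-1 had 2.25%, 1.46% and 1.82% and then 4.65%, 5.41% and 4.78%, a log2 change of 1.43 ± 0.174 (limma adjusted p = 0.00897). Gln-TTG-2-1 had 7.62%, 8.16% and 7.07% and then 12.1%, 13.3% and 12.8% (log2 0.74 ± 0.0913, limma adjusted p = 0.00897). In these tRNAs no vector library reached the lowest knockdown library. iMet-CAT-1-1 had almost as many reads at position 58 as at its 3′ end, at 92.1%, 93.0% and 93.7% in vector and 97.7%, 98.8% and 97.2% in knockdown. This difference was free of overlap but did not pass (log2 0.08 ± 0.0677, limma adjusted p = 0.377).

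**Figure D4:**
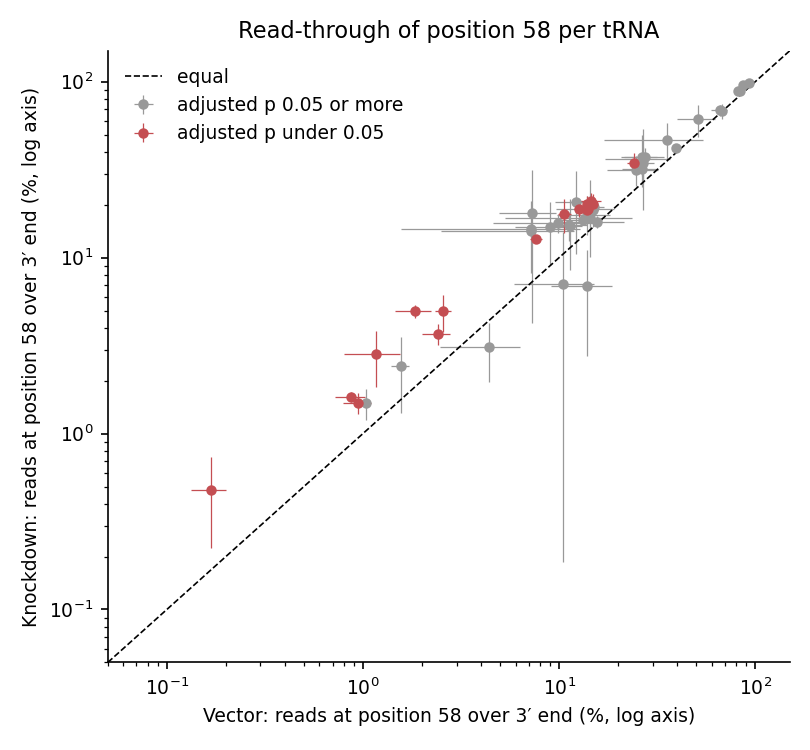
Read-through of position 58 in each of 52 tRNAs, vector mean on the x axis and knockdown mean on the y axis (%, both log axes), with SD bars over 3 libraries and a dashed line of equal values. 49 points lie above the line, and the 16 past the limma threshold (red) span the low and middle of the range.

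Read-through was also described by the base after A58 and by amino acid. The 32 tRNAs with A at position 59 had a median of 13.5% in vector and 18.3% in knockdown. Those of the 16 with T were 14.1% and 17.3%, and of the 4 with G 48.0% and 53.7%. The median log2 changes were 0.45, 0.43 and 0.22 for A, T and G. Vector levels overlapped widely, at 0.167% to 92.9% with A, 1.17% to 87.0% with T and 13.8% to 83.4% with G. The median with G describes none of its tRNAs. Val-TAC-1-1 and Val-TAC-2-1 stood at 81.3% and 83.4% in vector, and Gln-CTG-2-1 and Gln-CTG-4-1 at 14.8% and 13.8%. Val-AAC-1-1 and Val-TAC-1-1 differ in the last 2 capitals of the T-loops shown above, and at 16 bases in all. They had vector levels of 0.871% ± 0.153 and 81.26% ± 1.496 and knockdown levels of 1.61% ± 0.108 and 88.2% ± 0.960 (SD, n = 3). By amino acid, 5 of 6 tyrosine, 5 of 7 glutamine, 3 of 7 valine, 2 of 8 leucine and 1 of 7 proline tRNAs passed, and none of 7 alanine, 4 serine or 3 glycine tRNAs, as did none of the single phenylalanine, threonine and initiator tRNAs. The medians over these families are descriptions, since their genes share reads. Without vector replicate 1, 2 or 3 the calls numbered 1, 3 and 0, and without knockdown replicate 2 or 3 they numbered 5 and 0.

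Reads dropped both into position 59 and from there into position 58 in Val-AAC-1-1, where most were lost before position 59. There vector replicate 1 had 4998 reads at A69, 4846 at A60, 1471 at A59 and 43 at A58, and knockdown replicate 1 had 2515, 2416, 723 and 39. Summed over tRNAs with both sites, reads at position 58 were 17.28%, 18.001% and 18.38% of those at position 59 in vector and 24.09%, 24.36% and 26.97% in knockdown, without overlap (exact p = 0.1). This sum does not hold the mix of tRNAs fixed, so it also moves with their shares of reads. Taken singly, 28 of 32 such steps were higher in knockdown, and limma called 5, all higher. From the 3′ end into the T-loop the shares were 73.6% ± 0.663 and 74.3% ± 0.311, with overlap (exact p = 0.2). From position 58 to 57 they were 79.3% ± 2.67 and 80.1% ± 1.84 (SD, n = 3, exact p = 0.7).

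Taken over all neighbouring listed sites, a comparison added after seeing the data, limma called 22 of 280 steps (7.86%), with 19 higher (6.79%) and 3 lower (1.07%). Of the 19, 7 led into position 58: in Gln-TTG-1-1, Gln-TTG-2-1, Gln-TTG-3-3, Gln-CTG-1-4, Val-AAC-1-1, Val-TAC-1-1 and Tyr-GTA-2-1. A further 10 lay in the 5′ part of 5 glycine tRNAs, away from position 58. In Gly-GCC-1-1, reads at A3 were 57.96%, 56.11% and 57.02% of those at A14 in vector and 77.0%, 77.8% and 75.9% in knockdown (log2 0.43 ± 0.0163, limma adjusted p = 0.000588). In Gly-GCC-2-1 they were 77.0%, 77.3% and 76.5% and then 86.5%, 87.5% and 87.1% (log2 0.18 ± 0.00673, limma adjusted p = 0.000588). Gly-CCC-1-1 went from 71.2% ± 1.14 to 84.4% ± 0.863, Gly-GCC-3-1 from 77.6% ± 1.57 to 87.1% ± 1.26 and Gly-GCC-5-1 from 76.3% ± 1.10 to 86.4% ± 0.638 (SD, n = 3). In all 5 the groups did not overlap: relative to the reads at A14, more covered A3 in knockdown. Over all 280 steps the groups were apart in 74 (26.4%), with knockdown higher in 55 (19.6%) and lower in 19 (6.79%). Genes of these families share reads, so the 5 are not independent.

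**Figure D5:**
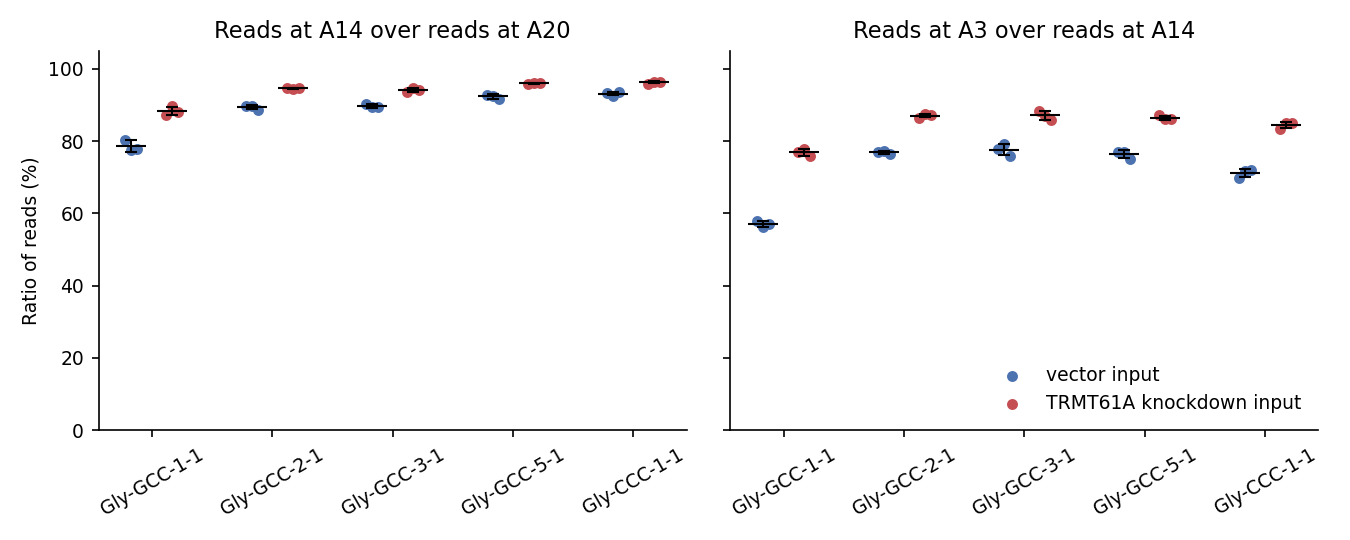
Reads at A14 over reads at A20 (left) and at A3 over A14 (right), in percent, for 5 glycine tRNAs, with 1 point per input library, the mean as a bar and the SD as an error bar. In every panel column the 3 knockdown points (red) lie above the 3 vector points (blue); in Gly-GCC-1-1 the right ratio is 57.03% in vector and 76.91% in knockdown.

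The step from A20 to A14 was also higher in the same 5 tRNAs, from 78.6% ± 1.61 to 88.3% ± 1.19 in Gly-GCC-1-1 and from 93.2% ± 0.494 to 96.2% ± 0.287 in Gly-CCC-1-1 (SD, n = 3). In counts of steps, A14 was grouped with the base on either side of it. Outside glycine, 1 of 16 steps from A14 toward the 5′ end was called, in Cys-GCA-4-1, which went from 15.7%, 19.9% and 18.4% to 27.4%, 31.4% and 31.7% (log2 0.74 ± 0.112, limma adjusted p = 0.0257). That call was lost without each of the 6 libraries, with adjusted p between 0.0510 and 0.118. Lys-CTT-2-1 had 19.6% and 28.2% there without overlap but did not pass, and alanine and serine tRNAs stood near 100% in both groups. Of 25 steps into A14 outside glycine 1 was called, lower, in Pro-TGG-2-1 (79.2% ± 4.70 and 65.2% ± 0.266). The remaining calls were A44 to A37 of Asp-GTC-3-1 (97.6% and 91.9%), A78 to A74 of Leu-CAA-1-1 (96.7% and 88.4%) and A65 to A58 of Pro-AGG-1-1 (43.3% and 58.1%), whose A58 is position 59. Of the 22 calls, 10 held without each library in turn, among them the A14 to A3 step in Gly-GCC-1-1, Gly-GCC-2-1, Gly-GCC-5-1 and Gly-CCC-1-1; without knockdown replicate 2 the count was 13.

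Coverage of the anticodon arm could be set against other regions in few tRNAs. Over the 3′ end, limma called 0 of 5 tRNAs, and 0 had an unadjusted p under 0.05. Leu-CAG-2-1 had 3.47% ± 1.87 and 4.28% ± 1.71, Ala-TGC-4-1 83.4% ± 39.0 and 95.4% ± 7.45 and Tyr-GTA-2-1 0.389% ± 0.198 and 0.419% ± 0.176 (SD, n = 3), each with overlap. Over position 58, all 3 tested tRNAs were lower in knockdown and limma called 2 of them (66.7%), both arginine tRNAs of the same anticodon. Arg-ACG-2-1 had 19.3%, 19.4% and 17.2% in vector and 9.96%, 10.9% and 4.11% in knockdown (log2 -1.26 ± 0.389, limma adjusted p = 0.0279). Arg-ACG-1-3 had 18.8%, 17.4% and 14.5% and then 11.2%, 12.1% and 10.6% (log2 -0.57 ± 0.178, limma adjusted p = 0.0279). Neither overlapped, while Leu-CAG-2-1, with 12.5% ± 4.81 and 11.6% ± 5.31 (SD, n = 3), did. In counts, Arg-ACG reads rose at position 58 (0.32 ± 0.116) and fell in the anticodon arm (-0.57 ± 0.183, log2, edgeR adjusted p = 0.0181 and 0.00768). Both calls were lost without vector replicate 1 or knockdown replicate 3, and that at position 58 also without vector replicate 2 or 3 or knockdown replicate 2. Of the 2 ratio calls, 0 remained without vector replicate 1 or 2 or knockdown replicate 1, and 1 without vector replicate 3 or knockdown replicate 2.

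The ratio of the 5′ part to the anticodon arm was called in 1 of 10 tRNAs (10%), lower in knockdown. This was Cys-GCA-4-1, with 301%, 238% and 248% in vector and 179%, 193% and 184% in knockdown (log2 -0.49 ± 0.0981, limma adjusted p = 0.0395). The groups did not overlap, but the call was lost without vector replicate 3 or any knockdown replicate. Ala-TGC-4-1 (243% ± 30.04 and 204% ± 18.03), Lys-TTT-6-1 (185% ± 6.25 and 194% ± 12.2) and Gly-GCC-3-1 (902% ± 56.9 and 1158% ± 417) did not pass (SD, n = 3).

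Mismatch rates in input differed at few sites. Of 428 sites with 20 reads or more in each library, the 379 with any mismatched read were tested. The quasi-binomial test called 2 of 379 sites (0.528%), 1 in each direction (0.264% each), with 35 at an unadjusted p under 0.05. limma on the logit of the rates called 0, with 12 unadjusted. Both calls rested on 3 mismatched reads: A22 of Cys-GCA-2-2 had 0 of 494 reads in vector, which allows up to 0.607%, and 3 of 484 in knockdown, and A93 of Leu-CAA-2-1, its position 58, had 3 of 284 in vector and 0 of 165 in knockdown, which allows up to 1.82% (both adjusted p = 0.00548, quasi-binomial). With the dispersion held at 1 or more neither passed, at an adjusted p of 0.843. The counts without a library were 7 (vector replicate 1), 8 (vector replicate 2), 0 (knockdown replicate 1) and 8 (knockdown replicate 3). Of the tested sites, 178 had at most 5 mismatched reads over the 6 libraries. These limits cover counting error only, as reads carried no molecular identifiers that the table reports.

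A21 of valine tRNAs had the highest mismatch rates. Val-CAC-2-1 A21 was mismatched in 63.0%, 64.9% and 64.5% of reads in vector and 36.7%, 59.4% and 52.8% in knockdown. Val-AAC-5-1 A21 had 44.4%, 36.7% and 41.6% and then 26.6%, 37.1% and 34.8%. In the first the knockdown libraries all lay lower, in the second they overlapped, and neither passed (quasi-binomial adjusted p = 0.552 for both). Next came Thr-AGT-5-1 A65 with 5 of 168 and 1 of 79 reads, Arg-ACG-1-3 A34, the wobble base, with 3 of 113 and 1 of 89, Tyr-GTA-2-1 A43 with 4 of 181 and 0 of 89, and Leu-AAG-3-1 A68 with 2 of 97 and 2 of 117. Pro-CGG-2-1 A58, its position 59, had 5 of 247 and 1 of 209, Lys-CTT-4-1 A14 10 of 539 and 5 of 562, Pro-AGG-1-1 A58, also position 59, 4 of 232 and 1 of 210, and Leu-AAG-4-1 A73 2 of 118 and 1 of 134. None of these passed. All were picked for a high vector rate, which by itself favours a lower rate after knockdown.

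With reads pooled over 91 sites, position 58 was mismatched in 0.637%, 0.698% and 0.385% of reads in vector and 0.556%, 0.797% and 0.567% in knockdown, which overlapped (exact p = 0.6). Positions 9 and 14 were each taken with the gene base on either side. The 16 sites of position 9 had 0.0916% ± 0.00935 and 0.141% ± 0.0304, at 2495 to 3914 reads per library and so on few mismatched reads. The 61 of position 14 had 0.567% ± 0.0118 and 0.455% ± 0.0359 (SD, n = 3). Neither class overlapped, at an exact p of 0.1 and 0.2 after adjustment over 6 classes. The 3′ end had 0.176% ± 0.0123 and 0.204% ± 0.0163 (exact p = 0.2) and the anticodon arm 0.385% ± 0.144 and 0.270% ± 0.0835 (exact p = 0.3). All sites together had 0.690% ± 0.0133 in vector and 0.569% ± 0.0332 in knockdown, a difference of -0.121 points without overlap (exact p = 0.1). It was 0.00487 points in the opposite direction once A21 of Val-AAC and Val-CAC was left out, a choice made after seeing the data. As medians over sites, the differences at position 14 (0.0431 points), the anticodon arm (0.00567), position 58 (-0.0388) and the 3′ end (-0.0406) turned in sign.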

How the data were processed

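Small RNA of WPMY-1 cells was measured by m1A-MAP-seq, and groups were taken from the labels. The submitters' processing notes name Bowtie2 2.2.4 and SAMtools 1.3.1 beside cutadapt 1.9.3, with build hg38; for parameters and the site-listing rule, the sources used here give nothing. Each site and library has a raw count of covering reads and one of mismatched reads, as deposited, per the file headers. The deposited mismatch rate, a fraction, equals their quotient within 4.9e-13. A further 19 lines are not analysed here.

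The members, regions and lists were chosen with earlier results of these data known. Reads per site were tested with edgeR 4.0.16 (TMM, filterByExpr) and ratios per tRNA with limma 3.58.1 on log2 values with 0.5 reads added, in R 4.3.3. Mismatched over total reads were tested with a quasi-binomial model, at sites with 20 or more reads in each library and any mismatched read among them. Sites whose mismatch fit left a dispersion below 1e-06 were not called. All adjustments were Benjamini-Hochberg over all features tested, two-sided, at 0.05; fold changes of ratios are on the log2 scale with that pseudocount. DESeq2 1.42.0, other minimums, pseudocounts and weights, a replicate block and leaving out each library were alternatives. Region medians were taken per gene before summing. Sites were named by rule: calls, the 10 highest vector rates, the best site of up to 8 anticodons per direction, the tRNAs past each ratio's threshold (8 with values) and the best-covered tRNA per amino acid. Scripts were tested on simulated data. Limits for a count of 0 are 3 counts.

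Libraries of the same number had correlations of -0.0962, 0.0767 and 0.0768 in their deviations over 471 sites. On this basis numbers were not taken as pairs, though so few correlations cannot exclude that they are.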

Additional observations from a re-analysis of the deposited data

How the results depend on the processing

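Reads per site gave 216 calls and 188 to 230 under 4 other settings (214 with the replicate block), and 193 to 205 without each library; reads by anticodon and region gave 33, with 30 under the replicate block, 28 with DESeq2 and 20 to 29 without each library. The ratio tests moved more, and the cause was not tested. Under the replicate block, read-through of position 58 (16 calls) and 5′ part over 3′ end (7) had 0 calls. So had 5′ part over anticodon arm (1) and mismatch per site (2), and neighbouring steps (22) had 10. The labels do not say whether equal numbers pair the samples. Summing by anticodon gave 9 calls for read-through, 1 for anticodon arm over position 58 and 0 for 5′ part over anticodon arm. A minimum of 10 reads gave 1 call for 5′ part over 3′ end and 0 for anticodon arm over position 58. Mismatch per site had 1 call at 50 reads, 0 with limma and 0 with the dispersion held at 1 or more. Without each library the calls ranged from 0 to 13 for read-through, 0 to 4 for 5′ part over 3′ end, 0 to 2 for anticodon arm over position 58, 0 to 1 for 5′ part over anticodon arm, 0 to 8 for mismatch per site and 13 to 17 for neighbouring steps. With each tRNA at its vector weight, summed differences were 2.91 points for read-through (6.68 before), 0.466 for anticodon arm over 3′ end (26.7), 15.2 for 5′ part over 3′ end (104) and 18.2 for 5′ part over anticodon arm (27.5); this setting also keeps fewer tRNAs (52 of 66, 5 of 8, 26 of 37 and 10 of 16), so weight and set moved together. As medians over sites, mismatch differences were 0 at position 9, 0.0431 at position 14, 0.00567 in the anticodon arm, -0.0388 at position 58, -0.0406 at the 3′ end, -0.00779 at other sites and -0.00503 over all. Pooled, position 58 ranged from -0.0274 to 0.129 without each library, with -0.0274 without vector replicate 3 and -0.0119 without knockdown replicate 2. Without A21 of the valine tRNAs, other sites differed by -0.0534 and all by 0.00487. Without glycine tRNAs, region shares differed by 10.2 points in the 5′ part (18.9 before), -9.62 at the 3′ end (-14.9), -2.16 between regions (-4.07), 0.948 at position 58 (0.254) and 0.655 in the anticodon arm (-0.108). For the 3 ratios with the anticodon arm, over the 3′ end, over position 58 and under the 5′ part, few tRNAs could be compared. Sites were listed in both regions for 8, 13 and 16 tRNAs, and 5, 3 and 10 of them had 20 reads in the denominator. Depth limits mismatch, where rates under 1% rest on few reads.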

Other observations

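In the antibody-enriched libraries of vector and knockdown cells the shares of both ends overlapped between groups. Without AlkB, the 5′ part took 32.7% ± 3.81 of site reads in vector and 38.2% ± 9.70 in knockdown, and the 3′ end 32.9% ± 2.55 and 31.3% ± 5.16 (SD, n = 3, exact p = 0.4 and 0.7). With AlkB the 5′ part took 47.1% ± 1.73 and 37.9% ± 12.2, and the 3′ end 27.9% ± 3.57 and 32.7% ± 7.28 (SD, n = 3, exact p = 0.4 for both). The knockdown libraries varied more than the vector libraries in each, and position 58 took 9.78% to 11.3% of reads in these 4 groups against 1.86% and 2.11% in input. The difference between input and enriched libraries was not tested. Without AlkB, the highest site had 8011, 8004 and 8007 reads in vector and 8006, 3328 and 8008 in knockdown. With AlkB it had 3016, 6040 and 7032 reads in vector and 8015, 8011 and 2350 in knockdown. Counts at the highest sites thus stopped near the same value in some enriched libraries and not in others. How this affects the shares of these libraries, and their contrast with input, was not tested.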
